A study of Mus musculus with 16 samples.

Results

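Fatty acids reach a muscle fibre by crossing the capillary wall, and 10 genes of that route (Fabp3, Fabp4, Fabp5, Cd36, Gpihbp1, Lpl, Slc27a1, Slc27a4, Meox2 and Tcf15) were followed in mouse gastrocnemius, the calf muscle. The genes were chosen by name from knowledge of the pathway, with earlier results of these data already known. All 10 were found among the 22180 genes named on the array by a probe set with a single symbol. All 10 also passed the filter on dim signals, and 13601 genes in all were tested. Of several probe sets for a gene, the one that was brightest on average over the mice was used.

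The muscles came from 16 male FVB/n mice, 1 array per mouse, killed at 16 weeks of age. Every mouse, controls included, carried loxP-flanked alleles of FoxO1, FoxO3 and FoxO4, received 3 injections of polyinosine:cytidine (pI:pC) at 4 to 5 weeks of age, and spent 8 weeks on a high-fat diet (58% fat, with 16.4% protein and 25.5% carbohydrate). The 8 deletion mice carried Mx1-Cre, in which an interferon-responsive promoter, switched on by the injections, drives the recombinase, and the 8 controls were their Cre-negative littermates. The labels describe an endothelial deletion, but the Mx1 promoter is not specific to endothelial cells, and its activity in other cells was not analysed here. Since Cre was carried by the deletion mice alone, effects of Cre and of the FoxO deletion cannot be told apart. The comparison asks how the muscle's fatty acid transport genes differed under high-fat feeding when FoxO genes had been deleted.

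Triglyceride in circulating lipoproteins is split at the capillary surface by lipoprotein lipase, which fibres and adipocytes make and which GPIHBP1 carries to the vessel lumen and holds there. The freed fatty acids enter and cross the endothelial cell with the help of CD36, fatty acid transport proteins and the binding proteins FABP4 and FABP5, and inside the fibre they are bound by FABP3. MEOX2 and TCF15 are transcription factors that work as a pair in the capillary endothelium of heart and skeletal muscle and promote expression of fatty acid transport genes there.

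The 250 bases upstream of the RefSeq start (GRCm38.p6) were read for the 5 members that the promoter table holds, and 3 are shown: Fabp3, the fibre gene that the capillary genes are set against below, Meox2, the 1 capillary gene with an entry, and Cd36, a textbook target of the MEOX2 and TCF15 pair. The windows are Fabp3 at chr4:130308488-130308737 on the plus strand, Meox2 at chr12:37108290-37108539 on the plus strand and Cd36 at chr5:17835897-17836146 on the minus strand, each 5′ to 3′, with motif matches in capitals.
Fabp3: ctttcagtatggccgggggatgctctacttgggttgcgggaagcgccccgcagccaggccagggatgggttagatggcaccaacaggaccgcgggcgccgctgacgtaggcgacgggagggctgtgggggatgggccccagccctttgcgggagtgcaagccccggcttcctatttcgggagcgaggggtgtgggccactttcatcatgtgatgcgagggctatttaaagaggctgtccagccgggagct
Meox2: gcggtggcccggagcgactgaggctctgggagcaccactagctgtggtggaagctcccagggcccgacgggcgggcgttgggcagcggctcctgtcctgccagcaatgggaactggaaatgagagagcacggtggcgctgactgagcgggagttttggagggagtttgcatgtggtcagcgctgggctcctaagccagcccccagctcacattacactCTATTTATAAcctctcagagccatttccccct
Cd36: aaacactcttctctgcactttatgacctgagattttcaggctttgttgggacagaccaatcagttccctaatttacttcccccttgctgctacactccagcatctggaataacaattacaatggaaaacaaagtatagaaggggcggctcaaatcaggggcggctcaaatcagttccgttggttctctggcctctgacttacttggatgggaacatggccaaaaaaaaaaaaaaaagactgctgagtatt
The motifs searched on both strands were the FoxO element GTAAACA, the PPAR and RXR element (a direct repeat), the homeodomain core TAATTA, the E-box CAGCTG and the MEF2 site, of which none overlaps another in these windows. Meox2 held 1 MEF2 match, whose first base lies 32 bases upstream of the start, and Fabp3 and Cd36 held no match to any of the 5. Among all 32851 promoter entries of this length, 2.92% held a MEF2 match, 3.17% a FoxO match, 13.0% an E-box, 4.84% the homeodomain core and 0.0335% the PPAR and RXR element. In the other 4 windows, 3 of Slc27a1 and 1 of Slc27a4, the only match was 1 E-box upstream of a Slc27a1 start. A match is a run of letters and no evidence of binding, and the array values do not bear on any of these sites.

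Some mice stood apart in a liver transcript. In 6 mice, 2 controls (2 and 7) and 4 deletion mice (1, 2, 4 and 5), the liver transcript Alb stood at 10.02 or above on the log2 scale, and at 8.18 or below in the others. Without these 6 mice, which leaves 6 controls and 4 deletion mice, the Fabp5 difference was 1.00 (limma adjusted p = 0.0894), the Fabp4 difference 0.44 (limma adjusted p = 0.297) and the Gpihbp1 difference 0.18 (limma adjusted p = 0.499), so that no member passed. Among all genes 4 were then higher and 3 lower past the threshold. The part of Alb-bearing RNA in the results was not tested beyond this. That fit cannot tell it apart from the loss of precision with fewer mice. The targeted genes Foxo1 (0.07, SE 0.12, limma adjusted p = 0.804), Foxo3 (0.50, SE 0.14, limma adjusted p = 0.0762) and Foxo4 (-0.24, SE 0.10, limma adjusted p = 0.236) did not pass in whole muscle, and probes outside the deleted exons would not report the deletion.

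In whole muscle the binding protein genes Fabp5 and Fabp4, which endothelium shares with other cells, were higher with deletion. The uptake proteins and the lipase did not pass the test. Fabp5 was 2.16-fold higher and Fabp4 1.40-fold higher, while Gpihbp1, Meox2 and Tcf15 had positive differences that did not pass, and Fabp3 a negative one. Differences for Cd36, Lpl, Slc27a1 and Slc27a4 lay between -0.05 and 0.00 on the log2 scale. In all 2 of the 10 members were higher and 0 were lower at a limma adjusted p under 0.05. Over all 13601 genes tested, 1.53% were higher and 0.301% lower by that rule, 1.83% in all. These were 208 and 41 genes, against 126 and 67 with arrays centred on the median and 142 and 55 with quantile normalization. The median difference was 0.07 over the members and 0.00 over all genes, and 5 of 10 members had an unadjusted p under 0.05, against 17.3% of all genes.

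**Figure D1:**
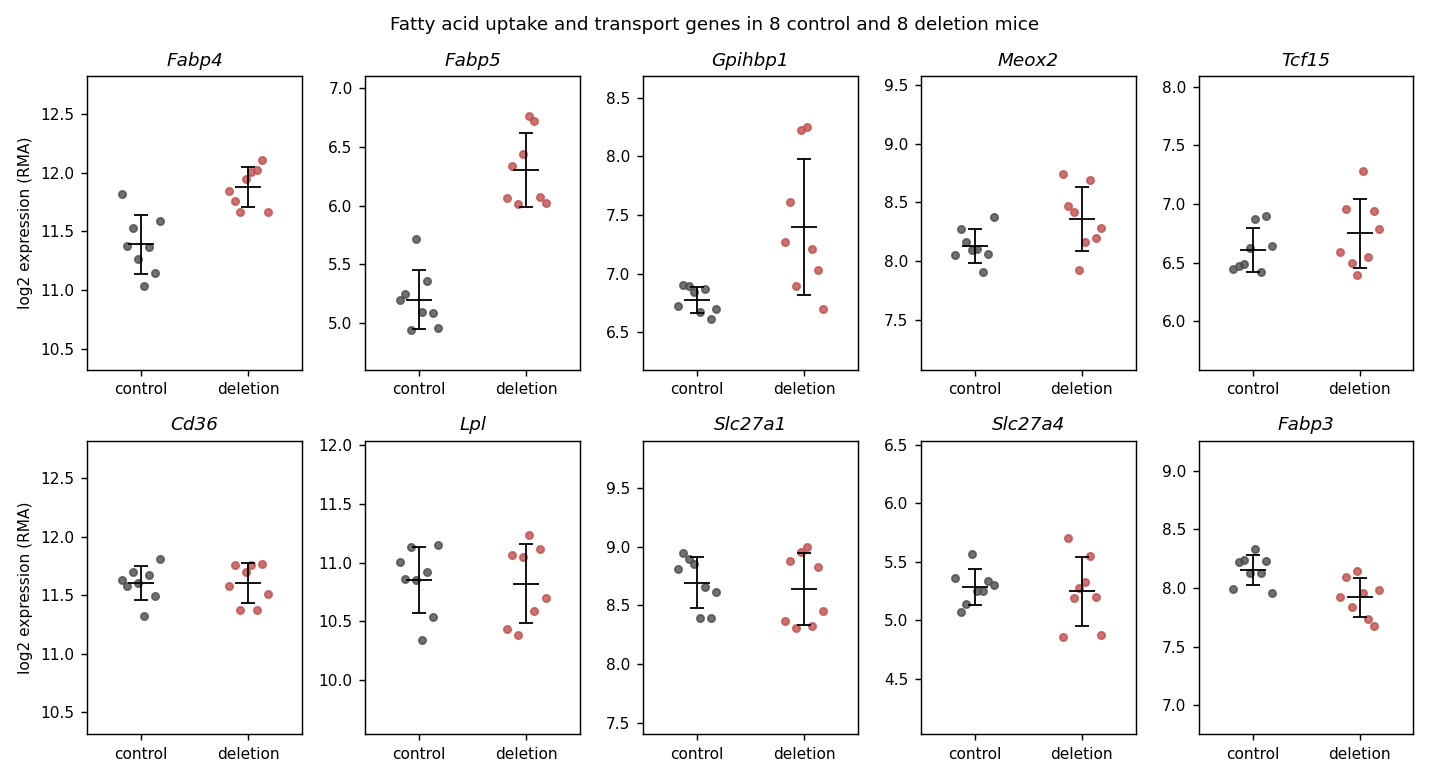
Log2 expression of the 10 genes in each of 8 control mice (grey) and 8 deletion mice (red), with the mean and SD of each group as bars; every panel spans the same number of log2 units. The groups are separate for Fabp5, where the lowest deletion mouse (6.01) lies above the highest control (5.71), and overlap for the other 9 genes.

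Fabp5, a lipid chaperone of capillary endothelium that macrophages, keratinocytes and other cells also make, changed most. On the log2 scale the controls ran from 4.94 through a median of 5.14 to 5.71, and the deletion mice from 6.01 through 6.20 to 6.77. All 8 deletion mice lay above all 8 controls, an arrangement found for 0.243% of the genes tested. The group means were 5.20 ± 0.25 and 6.30 ± 0.31 (SD, n = 8 each), a difference of 1.11 (SE 0.13, 95% interval 0.84 to 1.38, limma adjusted p = 1.49e-04). The exact two-sided permutation p was 1.55e-04, the smallest that 8 against 8 mice allow. By unadjusted p Fabp5 ranked 7 of 13601 genes.

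The array held 4 probe sets for Fabp5, and they differed in size and not in direction. The second in brightness (17548717) rose by 1.16 (SE 0.13), also with no overlap between groups, and followed the brightest (17548238) closely within groups. The third (17396056) rose by 0.53 (SE 0.12, limma adjusted p = 0.0232) and had 6 of 8 deletion mice above every control. The dimmest (17404073) was above the array median in 3 of 16 mice, failed the filter and differed by 0.34 (SE 0.11). The mouse genome holds processed copies of Fabp5, and how far these probe sets share probes with them was not analysed here, so the level of the gene itself is uncertain.

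**Figure D2:**
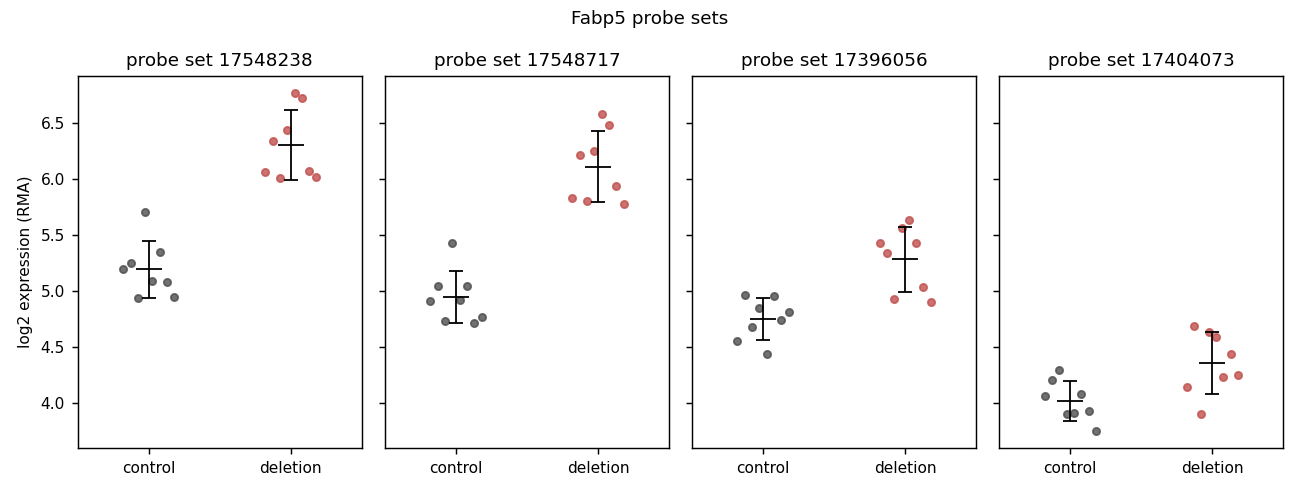
Log2 expression at the 4 probe sets of Fabp5, from the brightest to the dimmest, in control (grey) and deletion (red) mice, with the mean and SD as bars. All 4 means are higher with deletion, by 1.11, 1.16, 0.53 and 0.34 log2 units from left to right.

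Fabp4, the binding protein shared by capillary endothelium, adipocytes and macrophages, rose less and with overlap. Controls ran from 11.03 through 11.37 to 11.82 and deletion mice from 11.67 through 11.89 to 12.11 on the log2 scale. The ranges overlapped because control 1, at 11.82, lay above 3 deletion mice, and 5 of 8 deletion mice were above every control. The difference was 0.49 (SE 0.10, 95% interval 0.27 to 0.70, limma adjusted p = 0.0221, exact permutation p = 9.32e-04), from 11.39 ± 0.25 to 11.88 ± 0.17 (SD, n = 8 each). In whole muscle, more cells of a type and more RNA per cell cannot be told apart for this or any other member. The adipocyte markers beside it did not pass the test in any of 11 measured members (median difference 0.18). Their mean per mouse ran from 6.18 to 7.02 in the controls and from 6.23 to 7.63 in the deletion mice. With that mean as a covariate the Fabp4 difference was 0.43 (limma adjusted p = 0.0356). The call was lost with mice blocked by replicate number (limma adjusted p = 0.0645), with unequal variances per gene (0.0739) and with the mean of endothelial markers as a covariate (0.419), at a Fabp4 difference of 0.49, 0.49 and 0.44.

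Gpihbp1, the capillary anchor of lipoprotein lipase, was higher on average, but the deletion mice were spread widely. Controls lay close together, between 6.61 and 6.90 with a median of 6.78. Deletion mice ran from 6.70 through a median of 7.24 to 8.25, and the highest were mice 4 and 5, at 8.23 and 8.25. The difference of 0.62 (SE 0.19, 95% interval 0.23 to 1.01) did not pass over all genes (limma adjusted p = 0.0989, exact permutation p = 0.0036), although 6 of 8 deletion mice were above every control. Without deletion mouse 8, the lowest, it was 0.72 and passed (limma adjusted p = 0.0264). The 4 highest deletion mice, numbers 1, 2, 4 and 5 (7.27 to 8.25), were those with high Alb, and the other deletion mice lay between 6.70 and 7.21. The 2 controls with high Alb were not alike. Control 2 was the highest control, at 6.90, and control 7, at 6.61, was the lowest of all 16 mice. Without the mice with high Alb the difference was smaller and did not pass, as given above. The part of Alb-bearing RNA in this spread was not tested.

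Meox2 and Tcf15, the paired transcription factors, were less different. Meox2 ran from 7.91 through 8.10 to 8.37 in controls and from 7.93 through 8.35 to 8.74 in deletion mice, so the lower ends of the groups nearly coincided. Its difference was 0.23 (SE 0.10, limma adjusted p = 0.261, exact permutation p = 0.0535), with 4 of 8 deletion mice above every control. Tcf15 ran from 6.42 through 6.56 to 6.90 and from 6.39 through 6.69 to 7.28, and differed by 0.14 (SE 0.12, limma adjusted p = 0.567, exact permutation p = 0.289). Its whole control range lay inside the deletion range, with mouse 5 highest among the deletion mice.

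The uptake genes Cd36, Slc27a1 and Slc27a4 and the lipase gene Lpl showed no difference that passed. Cd36, the fatty acid translocase, ran from 11.32 through 11.62 to 11.81 in controls and from 11.37 through 11.64 to 11.77 in deletion mice, the deletion range lying inside the control range. Its difference was 0.00 (95% interval -0.17 to 0.17, limma adjusted p = 0.991), and its sign turned with small changes of processing. Lpl, lipoprotein lipase itself, ran from 10.34 through 10.89 to 11.15 and from 10.38 through 10.87 to 11.24 (difference -0.03, 95% interval -0.32 to 0.27, limma adjusted p = 0.941). Its second probe set differed by -0.10 (SE 0.16). Slc27a1 and Slc27a4 encode the fatty acid transport proteins FATP1 and FATP4, acyl-CoA synthetases that trap fatty acids on entry. Slc27a1 differed by -0.05 (95% interval -0.31 to 0.20, limma adjusted p = 0.861), from a control median of 8.74 (8.39 to 8.94) to a deletion median of 8.64 (8.31 to 9.00). Slc27a4 differed by -0.04 (95% interval -0.27 to 0.19, limma adjusted p = 0.898), with medians of 5.28 and 5.24. For these 4 genes the intervals leave room for changes of up to 0.32 log2 units downward and 0.27 upward.

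Fabp3, the binding protein of the fibre's cytosol, tended the other way. Controls ran from 7.96 through a median of 8.18 to 8.33 and deletion mice from 7.68 through 7.94 to 8.15. Deletion mice were lower on average, and 5 of 8 lay below every control. The difference of -0.23 (SE 0.08, 95% interval -0.39 to -0.07) did not pass over all genes (limma adjusted p = 0.126, exact permutation p = 0.0075). A second, dimmer probe set (17430628), above the array median in 14 of 16 mice, did not share it (0.01, SE 0.10). Within groups it followed the brighter one weakly (r = 0.18). The brighter one had r = -0.39 with the mean of slow and oxidative fibre markers and 0.43 with that of fast fibre markers. Neither passed (adjusted permutation p = 0.420 and 0.339). How far the brighter probe set stands for the fibre was not tested.

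To set the capillary genes against the fibre gene, the log2 value of Fabp3 was subtracted from that of every gene in the same mouse. All 5 capillary genes were higher relative to Fabp3, from 0.37 for Tcf15 to 1.34 for Fabp5. The same was found for 32.4% of the 13600 other genes tested, so that a pass here is a weak distinction, and 0.0588% were lower. The median over all genes was 0.23, which is the size of the Fabp3 difference with its sign turned. Fabp5 ranked 3 among these genes (1.34, SE 0.14, limma adjusted p = 1.58e-05), and its 8 deletion mice, between -1.97 and -1.01, lay above all controls, between -3.30 and -2.42. Such a separation was found for 1.28% of genes. Gpihbp1 followed at 0.86 (SE 0.17, limma adjusted p = 0.0026), with 7 of 8 deletion mice above every control, and Fabp4 at 0.72 (SE 0.15, limma adjusted p = 0.0033), with 4 of 8. Meox2 stood at 0.46 (SE 0.14, limma adjusted p = 0.0194, exact permutation p = 0.0090) and Tcf15 at 0.37 (SE 0.13, limma adjusted p = 0.0342, exact permutation p = 0.0159). The Tcf15 call was lost in 7 of 16 fits without 1 mouse. When the probe sets of a gene were averaged, so that the dimmer Fabp3 probe set counted, the calls for Meox2 (0.34, adjusted p = 0.120) and Tcf15 (0.25, adjusted p = 0.248) were lost. Cd36, Lpl, Slc27a1 and Slc27a4 relative to Fabp3 lay between 0.18 and 0.24 and did not pass.

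**Figure D3:**
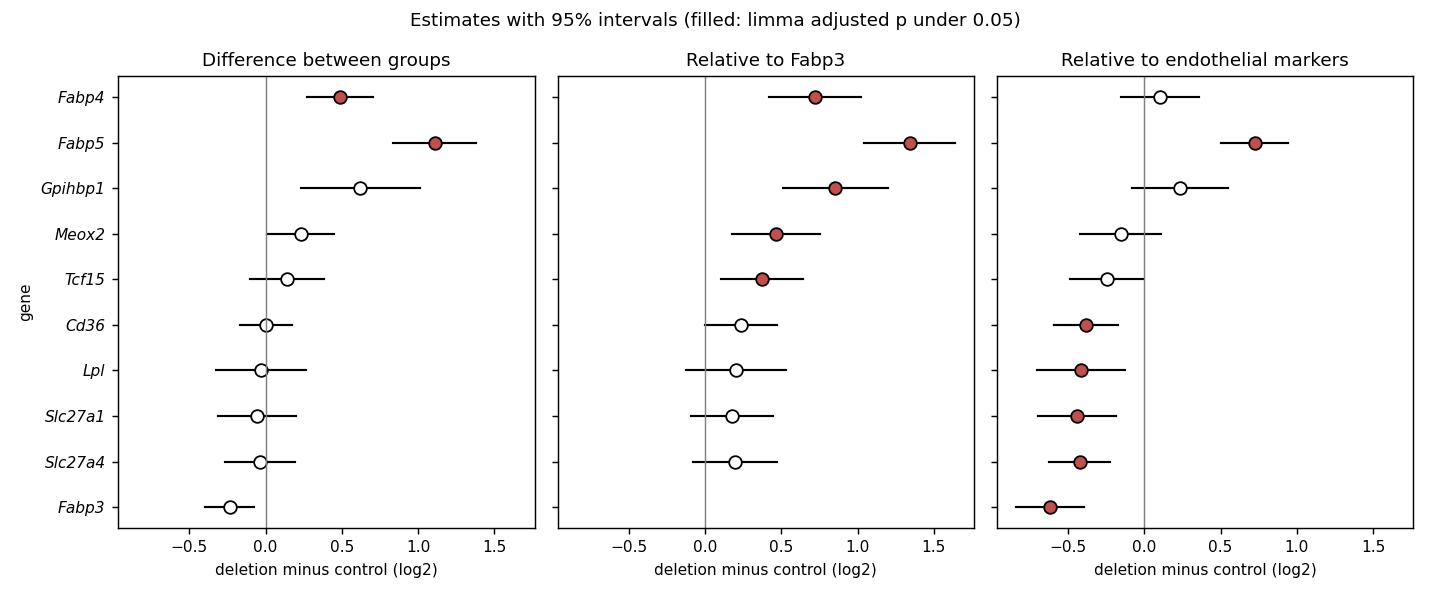
Difference between deletion and control mice (log2, points) with its 95% interval (lines) for each gene: as measured (left), after subtracting Fabp3 in each mouse (middle) and after subtracting the mean of 20 endothelial markers (right); filled points have a limma adjusted p under 0.05. Fabp5 alone is filled and above 0 in all 3 panels, while Fabp4 falls from 0.49 to 0.10 between the left and right panels.

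Endothelial markers were measured beside the capillary genes. Of 20 markers of endothelium in general, all measured, 12 rose and 0 fell, beside 1.53% higher and 0.301% lower over all genes tested. The transcription factor Erg rose by 0.52 (SE 0.08, limma adjusted p = 0.0028) and Ptprb, the phosphatase VE-PTP of endothelial junctions, by 0.73 (SE 0.12, limma adjusted p = 0.0054). Sox18 (-0.08, SE 0.15) and Robo4 (-0.03, SE 0.09) did not pass. The list mean per mouse ran from 6.79 to 7.11 in controls and from 6.96 to 7.58 in deletion mice, where 6 of 8 exceeded every control. The count of 12 fell to 5 without deletion mouse 6 and to 7 without control 5, control 6 or deletion mouse 2, to 5 with unequal variances per gene, and to 1 without the 6 mice with high Alb.

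Of the 11 markers listed for capillaries, 0 passed the threshold. Positive differences were found for 9 of the 11, beside 18 of the 20 general markers, and Kdr stands in both lists. The median difference of the capillary markers was 0.12, and their mean per mouse ran from 7.44 to 7.70 in controls and from 7.39 to 8.03 in deletion mice. Rgcc, a cell cycle regulator enriched in capillaries, differed by 0.36 (SE 0.10, limma adjusted p = 0.0850) and Cd300lg, a capillary surface protein, by 0.32 (SE 0.09, limma adjusted p = 0.0891), while Hspb1 (-0.10, SE 0.17) and Timp4 (-0.03, SE 0.25) lay on the other side of 0. Without deletion mouse 8, 3 of the 11 passed. Whether the general and the capillary lists differed from each other was not tested.

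Subtracting the mean of the 20 general markers in each mouse asks how a member differed relative to them. Fabp5 stayed higher by 0.72 (SE 0.11, 95% interval 0.50 to 0.94, limma adjusted p = 4.37e-04), a call made upward for 0.324% of genes, and its groups did not overlap, as for 0.0221% of genes. Fabp4 (0.10, 95% interval -0.15 to 0.36), Gpihbp1 (0.24, -0.08 to 0.55), Meox2 (-0.15, -0.42 to 0.11) and Tcf15 (-0.25, -0.49 to -0.01) did not pass. Cd36, Lpl, Slc27a1, Slc27a4 and Fabp3 were lower by 0.38 to 0.62 and all passed, but so did 78.5% of all genes, because the subtracted mean itself was higher with deletion. Slc27a4 was below every control in 8 of 8 deletion mice on this scale, as were 5.56% of genes in the same direction. With the marker mean as a covariate in place of a subtraction, Fabp5 differed by 0.61 (SE 0.16) and no longer passed (limma adjusted p = 0.263). Only 6 of 13601 genes passed in that fit.

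Within groups, the relation of Fabp5 to the general endothelial markers did not pass after adjustment. After removal of the group means, the Pearson correlation of Fabp5 with the marker mean over 16 mice was r = 0.73 (permutation p = 0.0030, adjusted over 100 relations 0.0993). Spearman's rho was 0.64 (permutation p = 0.0142, adjusted 0.202). Of the 100 relations between 10 members and 10 lists of markers, 21 had an unadjusted permutation p under 0.05 for r and 0 passed after adjustment. Without the 2 mice farthest from the median of the marker mean, r for Fabp5 was 0.63. With the same marker mean, Slc27a4 and Gpihbp1 each had r = 0.67 (adjusted permutation p = 0.184) and Fabp4 had r = 0.10 (adjusted 0.857). Gpihbp1 stood at -0.09 in the controls alone. Fabp4 had r = 0.57 with the adipocyte marker mean (adjusted 0.184). Lpl with the capillary and with the slow fibre markers had the same adjusted value as Fabp5, but its deletion mice fell into 2 separate sets.

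Cd36 and Lpl varied together from mouse to mouse. In the 8 controls the Pearson correlation was 0.96 (exact permutation p = 1.98e-04, adjusted over 45 pairs of members 0.0089) and Spearman's rho 0.95 (exact permutation p = 0.0011, adjusted 0.0513). Without the 2 controls farthest from the median in Cd36, r was 0.94. In the controls the mean of slow and oxidative fibre markers also varied with Cd36 (r = 0.78) and with Lpl (r = 0.73). Control 5, the lowest control in both genes, had a mean of 7.06 for these markers, against 8.82 to 9.49 in the other controls. The part of fibre type was not tested. No other pair of the 45 passed for r in the controls, no pair passed for both r and rho, and 10 had an unadjusted p under 0.05 for r. Among the deletion mice, numbers 2, 4, 5 and 7 were high in all of Cd36 (11.70 to 11.77), Lpl (11.05 to 11.24) and Slc27a1 (8.83 to 9.00). Deletion mice 1, 3, 6 and 8 were low, at 11.37 to 11.58, 10.38 to 10.70 and 8.31 to 8.45. The same sets of 4 were apart in the mean of the capillary markers (7.87 to 8.03 against 7.39 to 7.63) and of the fibre lipid genes (8.37 to 8.59 against 8.09 to 8.24), whose part in this was not tested. The 2 sets were read from these same values and do not overlap for any of the 3 genes, so no correlation is given over the deletion group. Sets of 4 are too small for a correlation of their own. How many of all genes tested part the same mice was not counted. Fabp5 was not arranged in this way, with deletion mouse 6 second highest at 6.72.

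**Figure D4:**
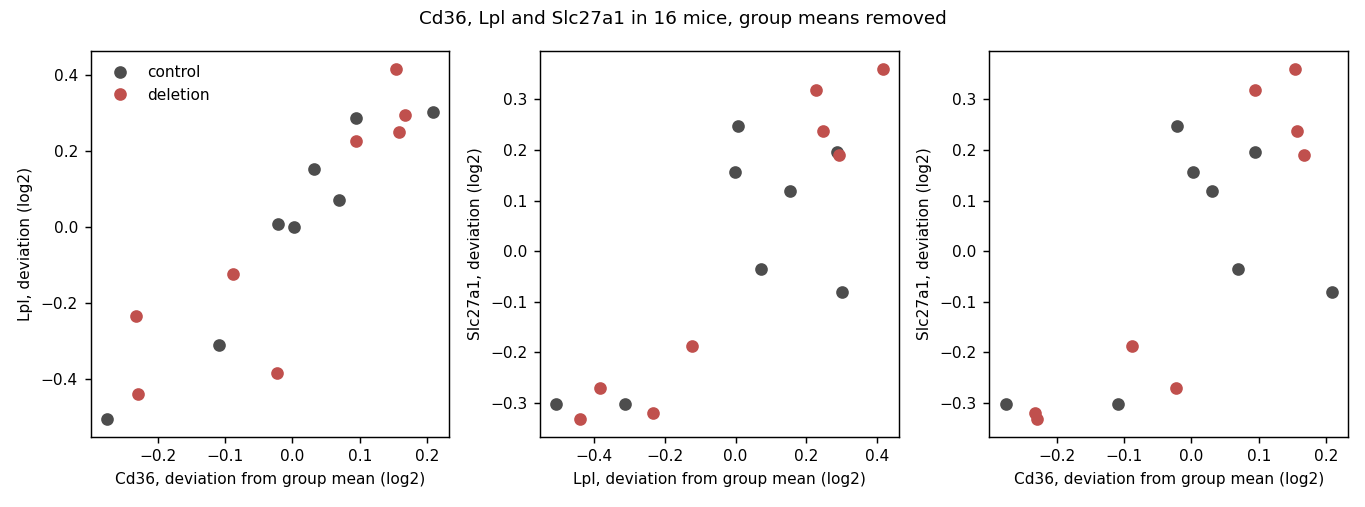
Deviation of each mouse from its group mean (log2) for pairs of Cd36, Lpl and Slc27a1, with controls in grey and deletion mice in red. Cd36 and Lpl lie along a line in both groups, and the deletion mice form an upper and a lower set of 4 in each panel.

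Among other genes of the route, few passed. In the list of other fatty acid carriers and activating enzymes, 11 of 23 were tested, and 1 rose, beside 1.53% of all genes tested. It was Cav1, the coat protein of caveolae, by 0.42 (SE 0.08, limma adjusted p = 0.0100). Its groups did not overlap, as for 0.243% of genes in this direction. Cav2, the partner of Cav1, differed by 0.32 (SE 0.09, limma adjusted p = 0.0694), the muscle and brain acyl-CoA synthetase Acsl6 by -0.11 (SE 0.07) and the acyl-CoA binding protein gene Dbi by -0.03 (SE 0.10). Of the 12 not tested, 10 were under the filter and 2 had no probe set with a single symbol, and Fabp1, Fabp2, Fabp6, Fabp7, Fabp9 and Fabp12 were among these 12.

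Of 18 tested genes of lipoprotein lipolysis, Hspg2, the basement membrane proteoglycan perlecan, rose by 0.43 (SE 0.11, limma adjusted p = 0.0482), and 17 did not pass. Among the latter were Apoc2, the cofactor of lipoprotein lipase, at -0.20 (SE 0.10) and Pcsk6, a proprotein convertase, at -0.08 (SE 0.10). Of 22 regulators of endothelial fatty acid transport, 2 rose, beside 1.53% of all genes tested. Apln, which encodes the vessel peptide apelin, rose by 1.19 (SE 0.19, limma adjusted p = 0.0056), with 7 of 8 deletion mice above every control, but 6 of 8 controls were not above their array median, so the size is uncertain. Nrp1, a co-receptor for VEGF-B, rose by 0.32 (SE 0.08, limma adjusted p = 0.0465). Hibch, an enzyme of valine breakdown, differed by -0.20 (SE 0.08) and the Notch target Hey1 by -0.16 (SE 0.08). Of 22 genes of lipid storage and mitochondrial entry in the fibre, 0 passed (median -0.04), with Cpt2, the inner carnitine palmitoyltransferase, at -0.28 (SE 0.10, limma adjusted p = 0.144), Gpam, a glycerol phosphate acyltransferase, at -0.22 (SE 0.09), the monoacylglycerol lipase Mgll at 0.12 (SE 0.14) and the triglyceride lipase Pnpla2 at 0.10 (SE 0.12). Without deletion mouse 8 the calls numbered 4 among carriers, 2 in lipolysis and 4 among regulators, and without control 2 or deletion mouse 7 the carriers numbered 2. Without any 1 mouse but control 4, deletion mouse 3 and deletion mouse 8, lipolysis had 0 calls, and regulators had 1 call without any mouse but controls 4 and 6 and deletion mice 4 and 8. Without the 6 mice with high Alb all 3 lists had 0, as they did with the endothelial covariate. With no filter, centred arrays, quantile normalization, the replicate block, the adipocyte covariate or unequal variances, lipolysis had 0 calls and regulators 1.

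**Figure D5:**
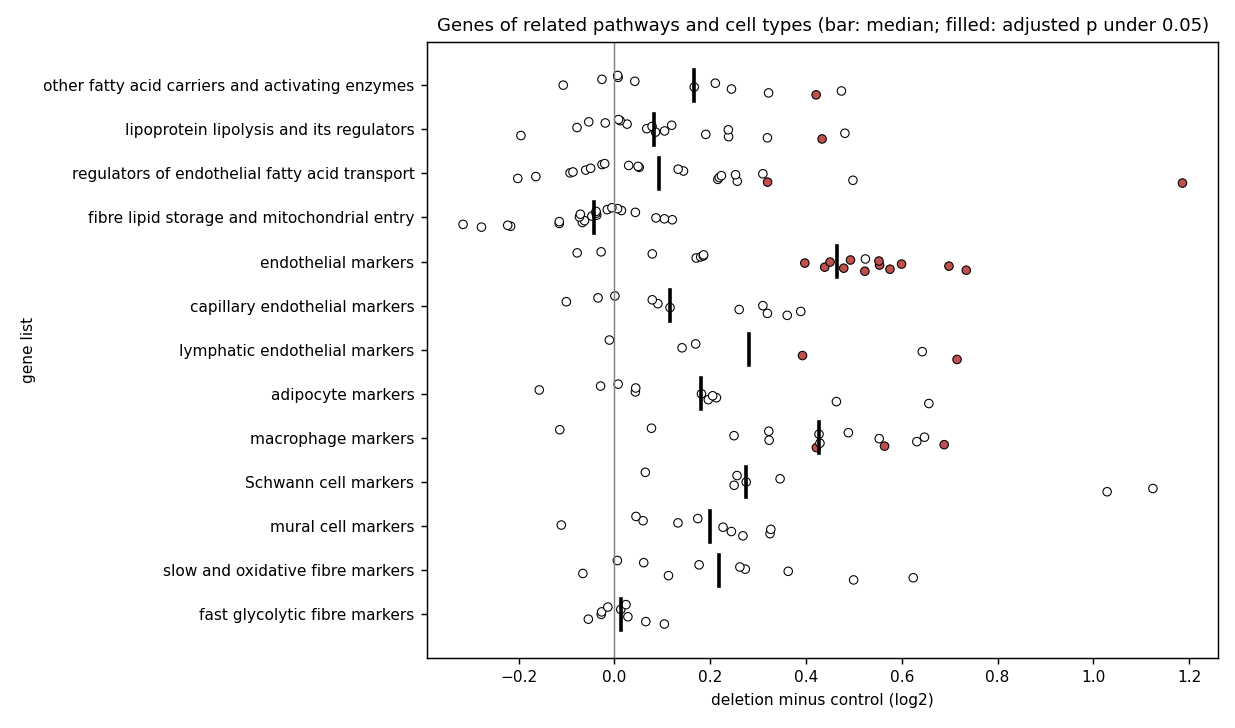
Difference between deletion and control mice (log2) of each tested gene, by list; bars are list medians and filled points have a limma adjusted p under 0.05. The general endothelial markers have a median of 0.46 and 12 filled points, the capillary markers 0.12 and none, and the fibre lipid genes -0.04 and none.

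Markers of other cells that can carry these genes were also measured, and the calls among them stand beside 1.53% higher over all genes tested. Of 14 macrophage markers 3 rose, among them Mertk (0.42, SE 0.08) and C1qa (0.56, SE 0.11), while the list mean per mouse ran from 5.94 to 6.56 in controls and from 6.15 to 7.34 in deletion mice, and Cd163 differed by -0.11 (SE 0.15). Of 6 lymphatic endothelial markers 2 rose, Lyve1 (0.72, SE 0.11) and Flt4 (0.39, SE 0.08), and their mean ran from 5.64 to 6.18 and from 5.90 to 6.51. Without the 6 mice with high Alb, and with the endothelial covariate, both the macrophage and the lymphatic list had 0 calls, and with unequal variances each had 1. No marker of Schwann cells (7 tested), mural cells (10), slow and oxidative fibres (10) or fast fibres (9) passed. Positive differences were found for 7 Schwann cell markers (median 0.28), 9 mural (0.20), 9 slow fibre (0.22) and 5 fast fibre markers (0.01). The Schwann cell mean per mouse ran from 5.55 to 6.85 in controls and from 5.51 to 6.95 in deletion mice. The fast fibre markers had a mean of 12.5 in both groups. The part of macrophages, lymphatic vessels and adipocytes in the rise of Fabp4 and Fabp5 was not tested beyond the covariate above.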

How the data were processed

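RNA from the gastrocnemius of each mouse (250 ng) was turned into biotinylated cRNA by the Affymetrix protocol, per the labels, and each mouse has 1 array. The authors deposited log2 values for each probe set; the submitters' processing notes name RMA and oligo, without versions. The arrays' medians in the deposited values ran from 4.43 to 4.61, and no further scaling was applied. The array design, build and scan batches are not stated in the labels or headers. The number of mice limits the precision.

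The platform annotation gives 1 symbol to 23521 of 41345 probe sets, several to 1814 and none to 16010. Probe sets had to exceed their array's median in 8 or more of the 16 mice. The 2 groups were fitted in limma 3.58.1 (R 4.3.3; lmFit, eBayes), with no other term, and two-sided p-values were adjusted by Benjamini-Hochberg over all genes tested. Members were also tested by exact permutation over 12870 splits. Correlations used 100000 permutations of mice within groups or, in the controls and chosen after the data were seen, all 40320 orders. The members and lists were chosen with earlier results of these data known. The genes named are the members, the FoxO genes, up to 2 per list with the smallest p in each direction, and the 3 genes closest to a member within groups; the untested Fabp genes and Alb were named in addition, Alb after its values were seen. The fit was tested on simulated data. Each mouse is a biological replicate per the labels. Same-numbered mice deviated together (r over 0.1) in 4 of 8 pairs, so the numbers were not taken as pairs. Alternatives in filter, scaling, probe sets, variance model, covariates and mice were run. Figures were drawn with matplotlib 3.10.9.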

Additional observations from a re-analysis of the deposited data

How the results depend on the processing

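The direction of the Fabp4, Fabp5, Fabp3 and Meox2 differences was kept in all 14 alternatives run, apart from fits without 1 mouse, with a range of 0.43 to 0.51 for the Fabp4 difference, 0.61 to 1.12 for the Fabp5 difference, -0.32 to -0.11 for the Fabp3 difference and 0.18 to 0.28 for the Meox2 difference. The 75th percentile filter left Slc27a4 without a value. The fit without the mice with high Alb was chosen after seeing the data.

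Members higher numbered 1 with the replicate block and with unequal variances, and 0 with endothelial markers as covariate and without the mice with high Alb. The Fabp4 difference did not pass at 0.49 with the replicate block (limma adjusted p = 0.0645) and with unequal variances (0.0739), at 0.44 with the endothelial covariate (0.419) and at 0.44 without the mice with high Alb (0.297). The Fabp5 difference did not pass at 0.61 with the endothelial covariate and 1.00 without the mice with high Alb. The Gpihbp1 difference of 0.62 passed at an adjusted p under 0.10 and turned to -0.063 with the endothelial covariate, as the Tcf15 difference turned to -0.12. The Cd36 difference, 0.00 as reported, turned to -0.050 with centred arrays, -0.0044 with array weights, -0.11 with the endothelial covariate, -0.034 with the adipocyte covariate and -0.11 without the mice with high Alb.

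Genes higher and lower past the threshold numbered 116 and 21 with no filter, 126 and 67 with centred arrays, 381 and 124 at an adjusted p under 0.10, 3 and 3 with the endothelial covariate, 103 and 20 with the adipocyte covariate, 56 and 12 with unequal variances, and 4 and 3 without the mice with high Alb, against 208 and 41 as reported; array weights gave 65 lower. The higher share of calls fell from 83.5% to 65.3% with centred arrays and 72.1% with quantile normalization.

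Relative to Fabp3, averaging probe sets ended the calls of Meox2 (0.34) and Tcf15 (0.25), and Tcf15 (0.37) also did not pass with no filter or with unequal variances. Relative to endothelial markers, without the mice with high Alb, Fabp3 (-0.57), Cd36 (-0.36), Lpl (-0.45), Slc27a1 (-0.47) and Slc27a4 (-0.36) did not pass, and Gpihbp1 (-0.071) and Meox2 (0.033) changed sign. Tcf15 relative to them passed at -0.31 with the 75th percentile filter, -0.27 with quantile normalization, -0.30 with array weights and -0.25 with trended variance, the replicate block and an adjusted p under 0.10. The cause of these changes was not tested.

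Without 1 mouse, genes higher ranged from 90 (without deletion mouse 6) to 538 (without deletion mouse 8), genes lower from 17 to 142 (the same mice), the Fabp4 difference from 0.44 to 0.55, the Fabp5 difference from 1.04 to 1.18, the Gpihbp1 difference from 0.50 to 0.72, the Cd36 difference from -0.037 to 0.036, the Lpl difference from -0.10 to 0.033 and the Slc27a4 difference from -0.10 to 0.018. Tcf15 relative to Fabp3 ranged from 0.30 to 0.46 and Tcf15 relative to endothelial markers from -0.30 to -0.19.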

Other observations

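The tested genes closest to 7 of the members from mouse to mouse, by Pearson's r of group-centred values over 16 mice, are given as a description; all share the same arrays. None are given for Cd36, Lpl and Slc27a1, whose deletion mice fell into 2 separate sets. Fabp5 was followed most closely by Tagln2 (0.89), Slc25a5 (0.86) and Adcy4 (0.85), and Fabp4 by Dpysl2 (0.82), Hspa12a (0.79) and Fxyd6 (0.77). Gpihbp1 was followed by Cldn15 (0.92), Tgm2 (0.92) and Nop53 (0.91), which in the controls alone stood at 0.73, 0.55 and 0.35. Meox2 was closest to Ext1 (0.82), Cx3cr1 (0.82) and Lpp (0.80). For Ext1, which rose by 0.49 (limma adjusted p = 0.0101), r was 0.36 over controls alone and 0.97 over deletion mice alone. Tcf15 was closest to Rab11fip3 (0.84), Klk12 (0.82) and Insyn2a (0.81), Slc27a4 to Dnajc16 (0.87), Fam207a (0.85) and Dgcr2 (0.85), and Fabp3 to Fem1a, Il15ra and Chd8 (0.84 each).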
